A study of Mus musculus with 6 samples.

Results

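Elastic fibres let a tissue stretch and recoil. Their core is elastin, which is laid down on a scaffold of fibrillin microfibrils, and small glycoproteins and fibulins bind to these microfibrils and help to assemble and cross-link the fibre. In peripheral nerve such fibres are known from the epineurium, the perineurium and the walls of the vessels that supply the nerve, and most elastin of the body is made around birth and in early life.

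Transcripts of 10 genes of this system were followed in sciatic nerves of newborn mice (postnatal day 1, P1) and of adult mice (day 60, P60). They were taken by symbol from the 41605 genes of the deposited tables, and each of the 10 symbols matched 1 row. They are Eln (elastin), the fibrillins Fbn1 and Fbn2, the microfibril-associated glycoproteins Mfap2, Mfap4 and Mfap5, and the fibulins Fbln1, Fbln2, Fbln5 and Efemp1, which encodes fibulin-3. All 10 were detected in all 6 libraries. In the GENCODE M21 annotation of GRCm38 the protein-coding genes are Eln on chromosome 5 (134702593-134747323), Fbn1 on chromosome 2 (125300594-125507993), Mfap2 on chromosome 4 (141010418-141015984), Fbln2 (91212455-91272540) and Mfap5 (122505845-122529290) on chromosome 6, Efemp1 (28853204-28926743) and Mfap4 (61485431-61488900) on chromosome 11, Fbln5 on chromosome 12 (101746565-101819055), Fbln1 on chromosome 15 (85205949-85286535) and Fbn2 on chromosome 18. Eln, Fbn1, Fbn2 and Mfap4 overlap an annotated gene on the opposite strand.

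Single cells were profiled with droplet 3′ RNA sequencing, in which each captured RNA molecule is counted once by a unique molecular identifier (UMI). There were 3 libraries at P1 and 3 at P60, each from an independent suspension that pooled male and female mice in equal number. Mice of both ages were on the C57bl/6J background and carried P0Cre-/+, in which Cre is driven by the promoter of a Schwann cell myelin gene, ReYFP Tg/+, a Cre-dependent yellow reporter, and βAct-DsRed Tg/+, a red protein under a chicken beta actin promoter that marks cells in general. DsRed-positive cells were sorted, and at P1 some of the YFP-positive Schwann cells were removed as well, so the numbers of cells per class are set in part by the sort. The labels give no dates, so age cannot be told apart from any difference in handling between the P1 and the P60 libraries, and p-values measure the spread between these 6 pooled suspensions.

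After a filter on genes per cell the libraries held 3435 to 4586 cells and 20092957 to 29371559 UMIs. Pairs of libraries shared 14 to 33 cell barcodes, at most 0.952% of the smaller library. P60 replicate 3 stood apart. In epineurial cells the chi-square statistic per degree of freedom between libraries was 23.3 and 25.4 for its pairs with the other P60 replicates and 1.53 to 2.49 for all other pairs within an age, and 16.2% of its cells had more than 10% mitochondrial UMIs, against 2.97% and 4.84% in the other P60 libraries. Calls of the members' change with age that were gained or lost without it are given beside the result.

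Cells were clustered within each age with the 10 genes taken out, so that no cluster was formed by them, and clusters were named from markers. Epineurial fibroblasts (outer sheath) numbered 1318 cells at P1 and 4532 at P60, endoneurial fibroblasts (between the axons) 1329 and 863, perineurial cells (the barrier sheath around each fascicle) 865 and 2447, mural cells of vessels 616 and 867, and endothelial cells 726 and 1813. The epineurial class is not the same mixture at the 2 ages. At P1 it was a single cluster with Pi16, a marker of adventitial fibroblasts, at 602 CPM (UMIs per 1000000 UMIs). At P60 it joined a Pi16-type cluster (1977 cells, mean Pi16 5988 CPM) and a cluster with lower Pi16 (2555 cells, 1355 CPM) led by Cxcl14 and Comp. A further P1 fibroblast cluster of 994 cells, with Aldh1a2, had no subtype name. Another 598 P1 fibroblasts, which were proliferating, had none either. The perineurial name is weaker in the newborn. There it rested on 4 markers, and the study calls its own P1 assignments tentative. Slc2a1, a marker of this layer, averaged 35.3 CPM across newborn perineurial libraries, against 1088 CPM across adult ones. How far this difference in cell state or identity enters the perineurial changes below was not tested. Levels below are in CPM, the UMIs of a gene relative to all UMIs of the class in that library, so they are relative levels, and the 3 values per age are in the order of replicates 1, 2 and 3. Changes with age are log2 differences, P60 minus P1, ± standard error (SE) from edgeR's quasi-likelihood test over all genes, with p-values adjusted over all genes tested by Benjamini-Hochberg. Differences between classes of one age are described without a test.

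**Figure D1:**
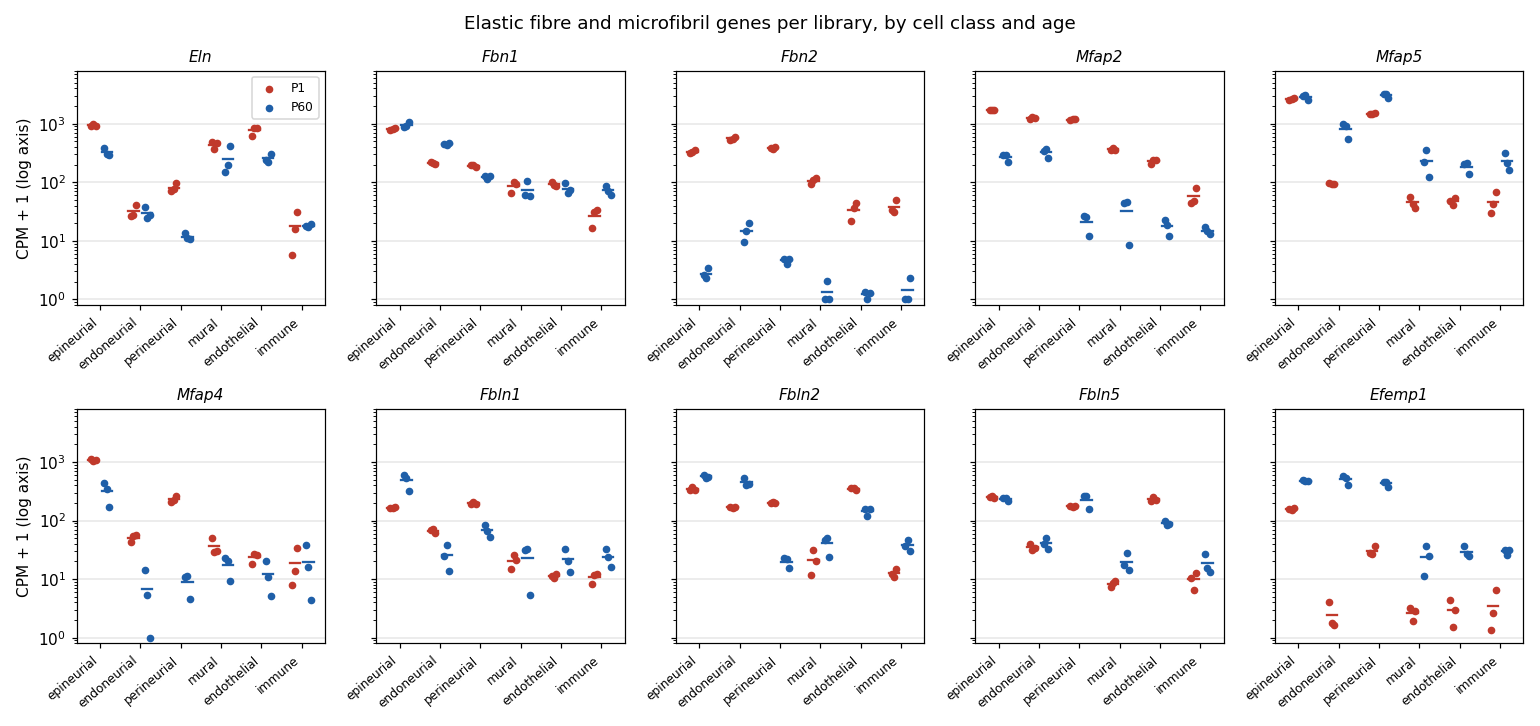
Level of each of the 10 genes (CPM + 1, log axis) in 6 cell classes, with a point for each library and a line at the mean, P1 in red and P60 in blue. Fbn2 and Mfap2 lie lower at P60 than at P1 in every class shown, Efemp1 lies higher at P60 in every class shown, and the immune class, which should not make these proteins, is shown beside the others.

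At an adjusted p under 0.05, 7 of the 10 genes changed with age in epineurial fibroblasts, where 43.1% of all 11977 tested genes did. In endoneurial fibroblasts 8 of 10 changed (46.3% of all tested genes), in perineurial cells 9 of 10 (54.1%), in mural cells 6 of 10 (33.2%) and in endothelial cells 8 of 10 (39.9%). In epineurial cells 3 were higher and 4 lower at P60 (22.6% and 20.5% of all tested genes), in endoneurial cells 4 and 4 (23.7% and 22.6%), in perineurial cells 2 and 7 (27.7% and 26.3%), in mural cells 3 and 3 (17.9% and 15.2%) and in endothelial cells 3 and 5 (21.1% and 18.8%). The 3 libraries of one age did not overlap those of the other for 9 of the 10 genes in epineurial cells (56.1% of all tested genes), 8 in endoneurial cells (56.1%), 9 in perineurial cells (62.5%), 6 in mural cells (47.5%) and 8 in endothelial cells (52.7%). The median change of the 10 genes was -0.03 in epineurial, 0.15 in endoneurial and -2.19 in perineurial cells, against medians of 0.03, 0.02 and 0.04 over all genes tested in those classes. The genes thus moved in different directions within 1 class, and the lower calls outnumbered the higher ones most in the perineurium. Between classes, the change with age in endoneurial cells differed from that in epineurial cells for all 10 genes (31.2% of all tested genes), 8 of them upward (15.7%) and 2 downward (15.5%). For perineurial against epineurial cells it differed for all 10 (37.7%), 4 upward (17.2%) and 6 downward (20.6%). For mural against epineurial cells it differed for 6 (19.6%), 4 upward (9.35%) and 2 downward (10.3%). At P1 the epineurial class held Pi16-type cells alone, and at P60 it also held the cluster with lower Pi16. These differences were not run against Pi16-type cells alone, where epineurial Mfap4 fell further than in the whole class. The part of this mixture in the differences was not tested. Nor was the part of the low Slc2a1 of the newborn perineurial class.

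**Figure D2:**
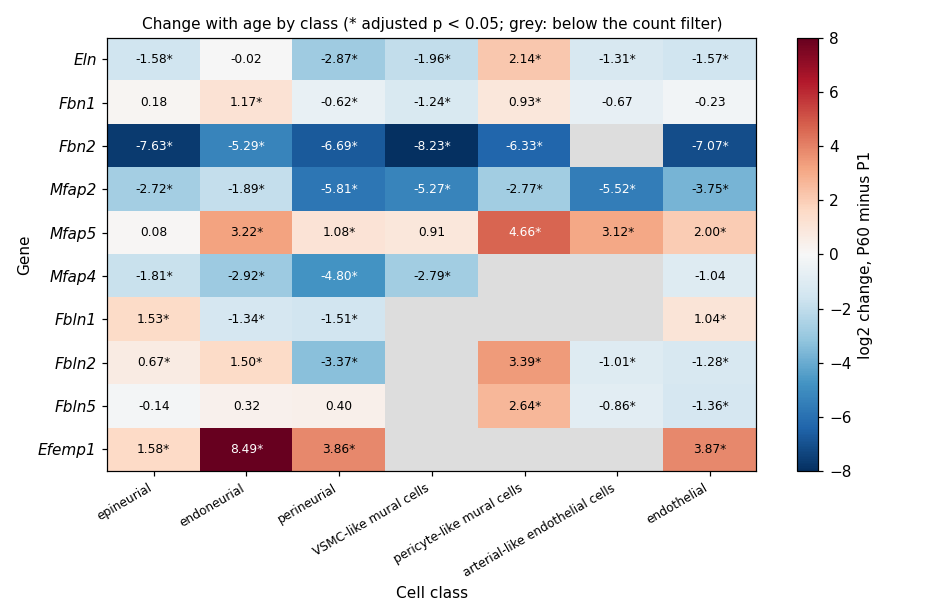
Change with age (log2, P60 minus P1) of each gene in 7 classes, with an asterisk where the adjusted p from edgeR's quasi-likelihood test was under 0.05 and grey where the gene was below the count filter. Fbn2 and Mfap2 are lower at P60 in every class where they were tested, Efemp1 ranges from 1.58 in epineurial to 8.49 in endoneurial fibroblasts, and Eln has opposite signs in VSMC-like and pericyte-like cells.

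Eln encodes tropoelastin, the soluble subunit that is cross-linked into the elastic core. Among the named fibroblast layers its level was highest in the epineurium. The P1 fibroblasts with no subtype name are not part of this comparison. At P1 the epineurial level was 909, 992 and 912 CPM and at P60 it was 379, 300 and 291 CPM. The ages did not overlap, and Eln fell by 1.58 ± 0.12 on the log2 scale (adjusted p = 2.7e-06, edgeR). In perineurial cells Eln was 69.1, 74.8 and 96.9 CPM at P1 and 12.4, 10.4 and 9.63 CPM at P60, a log2 change of -2.87 ± 0.18 (adjusted p = 5.6e-08, edgeR). Its P60 perineurial level lay below the 16.4 to 18.2 CPM of P60 immune cells, a class that should not make elastin. Endoneurial fibroblasts held 26.0, 26.6 and 40.5 CPM at P1 and 36.5, 23.4 and 26.2 CPM at P60, which overlap each other and, at P1, the immune range of 4.79 to 30.5 CPM. They also overlapped the Schwann range at P1 and lay below it at P60. No change was found in endoneurial cells (log2 change -0.02 ± 0.24, adjusted p = 0.95, edgeR). The fall of Eln was 1.51 ± 0.22 smaller on the log2 scale in endoneurial than in epineurial cells and 1.33 ± 0.14 larger in perineurial than in epineurial cells (adjusted p = 1.7e-08 and 1.3e-08, edgeR interaction terms). The endoneurial term rests on levels that overlap or lie below those of Schwann cells, which are read as a background.

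The share of cells with an Eln UMI moved in the same direction as the level in the epineurium. After thinning each cell to 1500 UMIs, 48.2% ± 0.91 (SD, n = 3) of P1 epineurial cells and 25.1% ± 2.0 of P60 epineurial cells held one, against 1.72% and 1.95% of immune cells. Without thinning the epineurial shares were 74.3% and 47.2%. An exact permutation test of 3 against 3 libraries, two-sided, cannot give a p under 0.1, and this comparison gave p = 0.1. Of all Eln UMIs of a library, epineurial fibroblasts held a mean of 38.6% at P1 (range 36.9 to 39.7%) and 63.2% at P60 (48.9 to 75.1%), while they made up 11.2% and 36.4% of the sorted cells. At P1 a further 1592 fibroblasts with no subtype name were counted apart, and at P60 there were none. The shares of the ages thus rest on different divisions of the fibroblasts, and no change is read from them.

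Fibrillins are the large glycoproteins that polymerise into microfibrils. Fbn2 is known as the fibrillin of fetal and newborn tissue and Fbn1 as that of the adult. Fbn2 was abundant in all fibroblast classes at P1 and nearly absent from all at P60. In endoneurial fibroblasts it was 533, 551 and 595 CPM at P1 and 8.69, 13.8 and 18.8 CPM at P60, in perineurial cells 380, 363 and 395 against 3.98, 3.07 and 3.94 CPM, and in epineurial fibroblasts 310, 326 and 359 against 1.57, 1.32 and 2.37 CPM. Every P1 library lay far above every P60 library. The log2 changes were -5.29 ± 0.19, -6.69 ± 0.15 and -7.63 ± 0.19 (adjusted p = 1.1e-10, 4.2e-11 and 1.1e-09, edgeR). The decline was 2.27 ± 0.34 smaller on the log2 scale in endoneurial than in epineurial cells (adjusted p = 4.1e-08, edgeR interaction), and the 3 endoneurial P60 libraries held 10, 13 and 18 Fbn2 UMIs, so the residual level rests on few molecules. At 1500 UMIs per cell 55.4% ± 2.2 (SD, n = 3) of P1 endoneurial cells and 1.28% ± 0.46 of P60 endoneurial cells had an Fbn2 UMI, where immune cells had 3.55% and 0.06%.

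Fbn1 did not fall with Fbn2 in every layer. It rose in endoneurial fibroblasts, from 219, 210 and 202 CPM to 440, 428 and 474 CPM (log2 change 1.17 ± 0.11, adjusted p = 1.1e-06, edgeR). It fell in perineurial cells, from 194, 195 and 185 CPM to 127, 112 and 128 CPM (-0.62 ± 0.11, adjusted p = 3.8e-04, edgeR). Perineurial Fbn1 at P60 ranked above immune cells but below Schwann cells, which are also read as a background, without overlap. In the epineurium it was 776, 811 and 856 CPM at P1 and 879, 910 and 1070 CPM at P60, and although the ages did not overlap the change of 0.18 ± 0.09 did not pass the test (adjusted p = 0.14, edgeR). The epineurial result depended on which P60 cluster was counted. The Pi16-type cells held 1412, 1400 and 1449 CPM of Fbn1 at P60, a rise of 0.77 ± 0.08 over the Pi16-type cells of P1 (adjusted p = 8.0e-06, edgeR), whereas the cluster with lower Pi16 held 476, 481 and 578 CPM.

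The share of Fbn2 in the UMIs of the 2 fibrillins needs no scaling between libraries. In endoneurial cells it was 70.9, 72.4 and 74.6% at P1 and 1.93, 3.13 and 3.82% at P60. In perineurial cells it was 66.3, 65.1 and 68.2% against 3.04, 2.67 and 2.99%. In epineurial cells it was 28.5, 28.7 and 29.5% against 0.179, 0.145 and 0.221%. Fbn2 was therefore the larger part of fibrillin UMIs in the endoneurium and perineurium of the newborn and the smaller part in the epineurium, and the P1 ranges of epineurial and of the other sheath cells did not overlap. Each share differed between the ages at the smallest p the exact permutation test allows, p = 0.1. Mural cells had 58.6, 51.8 and 55.8% at P1 and 0, 1 and 0% at P60, the last from 46, 100 and 91 fibrillin UMIs.

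**Figure D3:**
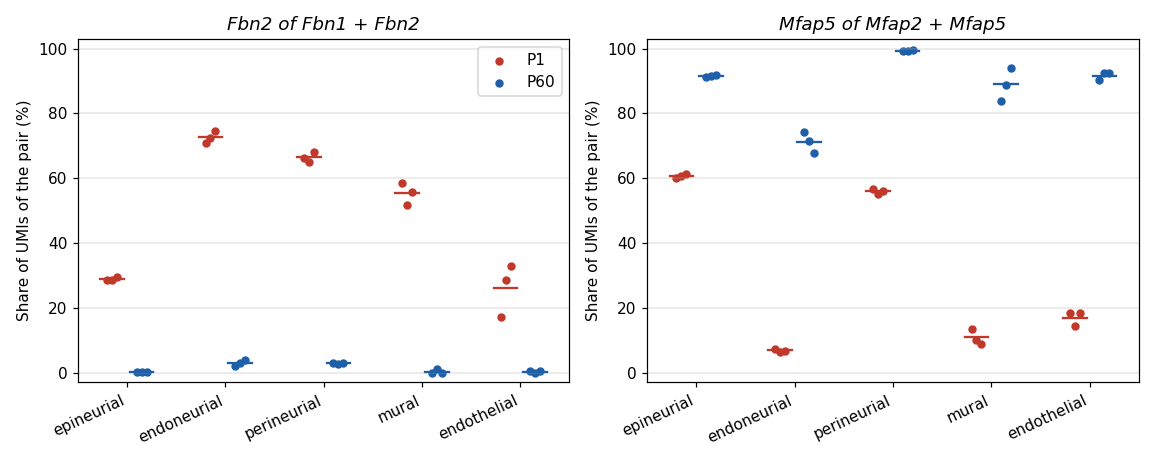
Share of Fbn2 in the UMIs of Fbn1 and Fbn2 (left) and of Mfap5 in the UMIs of Mfap2 and Mfap5 (right) per library, in percent, with a line at the mean of each age. The Fbn2 share drops to under 4% in every class at P60, and the Mfap5 share rises in every class, from 6.85% to 71.2% on average in endoneurial fibroblasts.

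Mfap2 and Mfap5 encode MAGP1 and MAGP2, small related glycoproteins that bind fibrillin microfibrils. They changed in opposite ways or, in the epineurium, in only one of the pair. Mfap2 in epineurial fibroblasts was 1694, 1720 and 1706 CPM at P1 and 291, 286 and 221 CPM at P60 (log2 change -2.72 ± 0.12, adjusted p = 7.6e-08, edgeR). In endoneurial fibroblasts it was 1219, 1316 and 1260 against 340, 365 and 258 CPM (-1.89 ± 0.14, adjusted p = 1.7e-07). In perineurial cells it was 1132, 1185 and 1191 against 25.1, 24.3 and 11.2 CPM (-5.81 ± 0.24, adjusted p = 1.6e-09). At P60 the perineurial values lay far below those of the other sheath classes and overlapped the 12.1 to 16 CPM of immune cells. The perineurial decline exceeded the epineurial one by 3.12 ± 0.10 on the log2 scale (adjusted p = 1.8e-19, edgeR interaction).

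Mfap5 rose in the inner layers. In endoneurial fibroblasts it was 95.7, 90.8 and 92.3 CPM at P1 and 986, 911 and 542 CPM at P60, and it rose by 3.22 ± 0.20 on the log2 scale (adjusted p = 3.1e-08, edgeR). In perineurial cells it rose from 1487, 1456 and 1515 to 3268, 3272 and 2730 CPM (1.08 ± 0.11, adjusted p = 3.1e-06). P60 replicate 3 was the lowest P60 library in both, and still lay above every P1 library. Epineurial Mfap5 was 2545, 2649 and 2692 CPM at P1 and 2993, 3075 and 2531 CPM at P60. These overlap, and the change was 0.08 ± 0.09 (adjusted p = 0.49, edgeR). Without P60 replicate 3 it was 0.19 ± 0.04 (adjusted p = 7.8e-04), and among Pi16-type cells alone, with 4544, 4478 and 3378 CPM at P60, it was 0.62 ± 0.10 (adjusted p = 3.8e-04). Mfap5 UMIs were also found in classes that should lack it at P60, at 159 to 315 CPM in immune cells and 654 to 1219 CPM in Schwann cells, against 28.7 to 66.6 and 35.6 to 39.7 CPM at P1. The endoneurial range at P60 lies above the immune range and overlaps the Schwann range.

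The share of Mfap5 in the UMIs of this pair was 7.28, 6.45 and 6.82% in P1 endoneurial fibroblasts and 74.4, 71.4 and 67.7% at P60. In perineurial cells it went from 56.8, 55.1 and 56.0% to 99.2, 99.3 and 99.6%, and in epineurial cells from 60, 60.6 and 61.2% to 91.2, 91.5 and 92.0%. In each class the 3 libraries of an age lay close together and the ages did not overlap (exact permutation p = 0.1, two-sided, the smallest possible). Mfap2 had its lower share in the newborn epineurium and perineurium and the higher in the newborn endoneurium.

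Mfap4 encodes a fibrinogen-domain protein that binds elastin and collagen. It was 1126, 1051 and 1064 CPM in P1 epineurial fibroblasts and 433, 345 and 171 CPM at P60 (log2 change -1.81 ± 0.26, adjusted p = 2.9e-04, edgeR). The P60 libraries were spread widely, with replicate 3 the lowest. Perineurial cells went from 209, 223 and 263 CPM to 10.1, 10.1 and 3.50 CPM (-4.80 ± 0.27, adjusted p = 2.1e-08), and endoneurial cells from 42.5, 53.3 and 54.7 CPM to 13.03, 4.26 and 0 CPM (-2.92 ± 0.41, adjusted p = 5.4e-05). The library at 0 CPM had 955978 endoneurial UMIs, which allows up to 3.14 CPM, and the P60 values of both classes are at or below the immune range of 3.47 to 37.3 CPM. Epineurial fibroblasts held 94.7% of all Mfap4 UMIs at P60. Within them Mfap4 separated the clusters, with 37.1, 44.7 and 25.2 CPM in the Pi16-type cells and 734, 607 and 362 CPM in the cells with lower Pi16. Counted in Pi16-type cells alone, the decline with age was -4.95 ± 0.18 (adjusted p = 8.9e-10, edgeR).

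**Figure D4:**
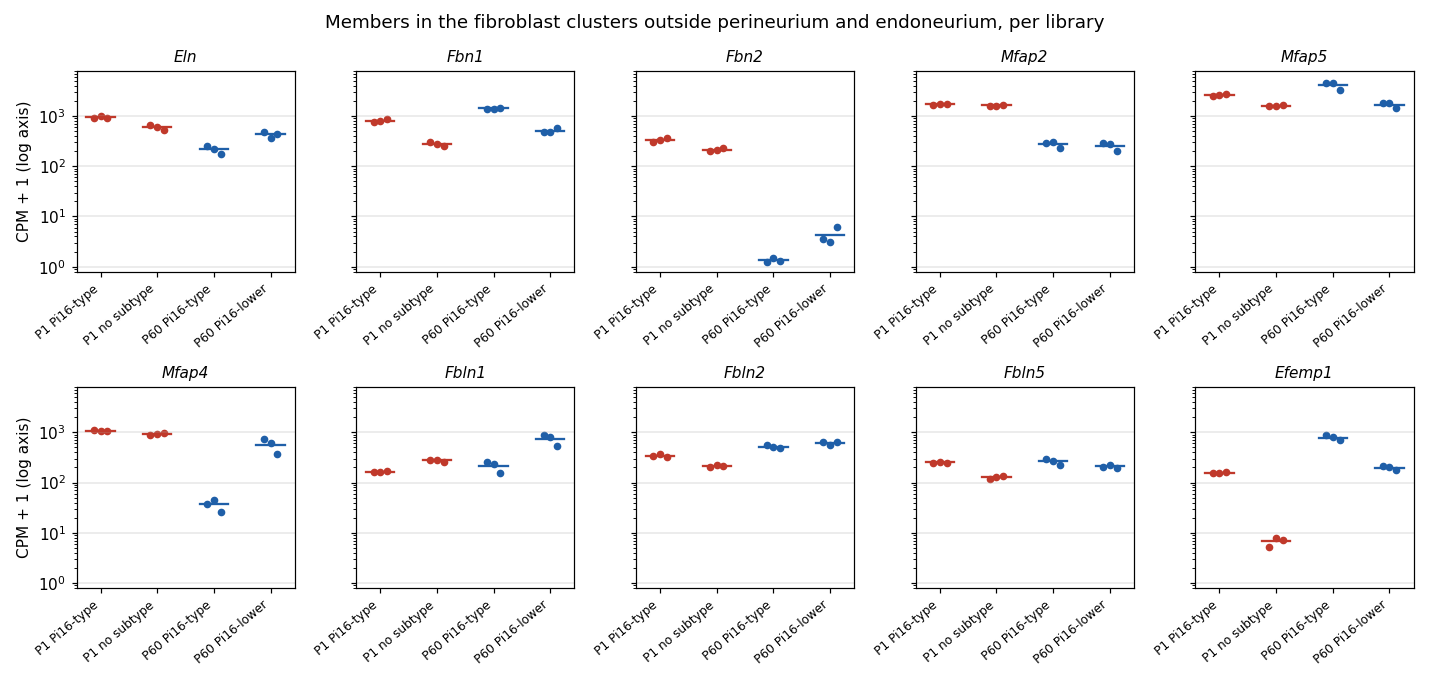
Level of each gene (CPM + 1, log axis) in 4 fibroblast clusters outside the perineurium and endoneurium, with a point for each library and a line at the mean. P1 clusters are red and P60 clusters blue. At P60 the Pi16-type cluster has more Fbn1, Mfap5 and Efemp1 and less Eln, Mfap4 and Fbln1 than the cluster with lower Pi16, with no overlap of the libraries.

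Fibulins are calcium-binding glycoproteins that link elastin to microfibrils and basement membranes. Efemp1 was near 0 in P1 endoneurial fibroblasts, at 3.00, 0.776 and 0.633 CPM from 12, 3 and 3 UMIs, and was 566, 541 and 396 CPM at P60. The log2 change was 8.49 ± 0.31 (adjusted p = 1.4e-10, edgeR). Perineurial cells went from 27.1, 26.3 and 35.7 to 456, 449 and 378 CPM (3.86 ± 0.15, adjusted p = 1.2e-09), and epineurial cells from 153, 153 and 162 to 491, 477 and 468 CPM (1.58 ± 0.10, adjusted p = 6.2e-07). Efemp1 was therefore an epineurial transcript at P1, with 70.1% of its UMIs in that class, and was at a like level in all 3 layers at P60, where epineurial cells held 55.3% and perineurial cells 33.9% of its UMIs. The rise exceeded the epineurial one by 6.91 ± 0.20 in endoneurial and by 2.25 ± 0.12 in perineurial cells (adjusted p = 2.5e-46 and 4.5e-15, edgeR interactions, and 1.9e-22 for the first with DESeq2). The share of endoneurial cells with an Efemp1 UMI went from 0.227% ± 0.022 to 49.6% ± 5.0 (SD, n = 3, 1500 UMIs per cell), where immune cells had 0.10% and 3.54%. In the Pi16-type cells of P60 Efemp1 was 865, 789 and 689 CPM and in the cells with lower Pi16 it was 209, 204 and 180 CPM.

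Fbln2 encodes fibulin-2, which binds both tropoelastin and fibrillin. It moved in opposite directions in neighbouring layers. It rose in epineurial fibroblasts, from 331, 372 and 327 to 607, 526 and 557 CPM (0.67 ± 0.10, adjusted p = 3.4e-04, edgeR), and in endoneurial fibroblasts, from 171, 160 and 169 to 526, 398 and 411 CPM (1.5 ± 0.13, adjusted p = 7.8e-07). In perineurial cells it fell from 197, 205 and 199 to 21.6, 20.8 and 14.2 CPM (-3.37 ± 0.16, adjusted p = 6.6e-09), below the immune range of 29.5 to 44.6 CPM at P60. The perineurial change differed from the epineurial by -4.06 ± 0.11 (adjusted p = 2.7e-21, edgeR interaction).

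Fbln1 encodes fibulin-1, a fibulin of elastic fibre cores and basement membranes. In the epineurium it rose from 162, 162 and 170 to 604, 538 and 320 CPM (1.53 ± 0.20, adjusted p = 1.6e-04, edgeR). The rise lay in the P60 cluster with lower Pi16, which held 868, 806 and 537 CPM, while the Pi16-type cells held 255, 232 and 154 CPM and did not pass the test against P1 (0.34 ± 0.16, adjusted p = 0.11, edgeR). Fbln1 fell in endoneurial fibroblasts, from 66.7, 70.6 and 59.8 to 23.5, 37.3 and 12.6 CPM (-1.34 ± 0.24, adjusted p = 5.1e-04), to about the immune range of 15.2 to 31.4 CPM. It fell in perineurial cells, from 189, 210 and 187 to 84.0, 65.6 and 52.3 CPM (-1.51 ± 0.16, adjusted p = 6.7e-06, edgeR). Perineurial Fbln1 at P60 ranked above immune cells but below Schwann cells, with which it overlapped. The P60 perineurial cells were themselves uneven, since a cluster of 468 cells with a median of 12.1% mitochondrial UMIs held 303, 236 and 164 CPM and the other 1979 cells held 57.3, 44.4 and 35.7 CPM.

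Fbln5, whose protein fibulin-5 brings tropoelastin and lysyl oxidase-like enzymes to microfibrils did not pass the test in any fibroblast layer with all libraries. It was 246, 260 and 246 against 245, 243 and 212 CPM in epineurial cells (-0.14 ± 0.11, adjusted p = 0.31, edgeR). Endoneurial cells held 39.5, 30.3 and 32.7 against 39.1, 50.1 and 31.4 CPM (0.32 ± 0.20, adjusted p = 0.21). Perineurial cells held 178, 167 and 178 against 258, 264 and 157 CPM (0.40 ± 0.18, adjusted p = 0.074), where replicate 3 alone lay below the P1 range. Without P60 replicate 3 Fbln5 was called higher in perineurial (0.62 ± 0.06, adjusted p = 6.1e-09, edgeR) and endoneurial cells (0.47 ± 0.18, adjusted p = 0.043). The perineurial rise also passed without the cluster of high mitochondrial share (0.54 ± 0.17, adjusted p = 0.018), an alternative chosen after seeing the data, and under 5 of the other alternatives, so its call depends on the processing. Schwann cells at P1 held 190, 204 and 196 CPM of Fbln5 and 22.7% of them had a UMI at 1500 UMIs per cell, against 1.28% of immune cells.

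Upstream sequence was available from RefSeq (GRCm38.p6) for 6 of the 10 genes. The 250 bases before the most upstream listed start are shown for 1 gene that was lower at P60 in every layer and 1 that was higher in every layer, both on the plus strand, with matches to the GC box letters GGGCGG, on either strand, in capitals. Mfap2 lies at chr4:141010174-141010423 and Efemp1 at chr11:28852955-28853204.
Mfap2: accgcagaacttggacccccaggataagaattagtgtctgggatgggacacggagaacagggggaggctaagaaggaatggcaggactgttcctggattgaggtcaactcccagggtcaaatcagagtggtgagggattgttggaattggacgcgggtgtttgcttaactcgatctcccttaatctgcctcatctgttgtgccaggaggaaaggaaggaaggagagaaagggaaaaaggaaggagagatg
Efemp1: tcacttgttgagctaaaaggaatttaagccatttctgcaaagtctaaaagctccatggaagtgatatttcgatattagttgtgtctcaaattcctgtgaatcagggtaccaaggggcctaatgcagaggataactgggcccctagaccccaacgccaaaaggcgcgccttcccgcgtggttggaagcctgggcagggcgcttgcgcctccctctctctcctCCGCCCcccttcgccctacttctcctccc

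Mfap2 had no GC box in this window and Efemp1 had 1, and of the other genes Fbn1 and Fbln2 had 1, Fbln5 had 2 and Fbln1 had none, where 33.0% of 27025 promoters of the same length held at least 1. The AP-1 letters TGANTCA occurred once in Efemp1 and in none of the other 5 windows (6.85% of all promoters), and the TEAD letters CATTCC occurred once in Mfap2 alone (12.6% of all promoters). None of the 6 windows held the TATA letters TATAAA, found in 12.98% of promoters. GC content was 51.2% for Mfap2 and 53.6% for Efemp1, with a median of 52.0% over all promoters.

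In vessels, levels were set beside those of immune cells, because free RNA can give UMIs in cells that do not express a gene. For Mfap5, Efemp1, Fbln1 and Mfap4 the mural and endothelial levels at P60 lay within or close to the immune range. Mural Mfap5 was 56.0, 42.4 and 35.3 CPM at P1 and 222, 358 and 120 CPM at P60, endothelial Mfap5 was 46.4, 40.1 and 52.6 against 201, 213 and 136 CPM, and immune Mfap5 was 28.7, 42.0 and 66.6 against 315, 209 and 159 CPM. The called rises of Mfap5 (2.46 ± 0.33 and 2.00 ± 0.19, adjusted p = 3.0e-04 and 6.7e-06, edgeR) and of Efemp1 (3.89 ± 0.58 and 3.87 ± 0.39, adjusted p = 5.7e-04 and 1.1e-05) in mural and endothelial cells went with higher levels in immune cells, where Efemp1 was 0.368, 1.60 and 5.58 CPM at P1 and 30.8, 25.1 and 30.3 CPM at P60. The vessel classes also held subclusters with genes of other cells among their leading genes. In endothelial cells these were 101 cells at P1 (Acta2 and Dcn), and 102 (Col3a1 and Dpt) and 34 cells (Cldn1 and Msln) at P60. In mural cells at P1 they were 39 cells (Col1a1 and Dcn). The part of free RNA and of these subclusters in the rises was not tested. In the mural class as a whole, Eln was 480, 366 and 461 CPM at P1 and 149, 196 and 408 CPM at P60 and did not pass (-0.62 ± 0.33, adjusted p = 0.17, edgeR), but did without P60 replicate 3 (-1.28 ± 0.13, adjusted p = 5.2e-08), as did Fbln2 (1.29 against 1.02), while Mfap4 no longer passed (-0.72 against -1.08). Eln, Fbln2, Fbln5 and, at P1, Mfap2 stood above the immune level in at least 1 vessel class. In mural cells at P1, Fbn1, Fbn2, Mfap4 and Fbln1 also ranked above immune cells.

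Vessel classes were divided further by their markers. Smooth muscle-like (VSMC-like) cells numbered 163 at P1 and 460 at P60, pericyte-like cells 379 and 337, arterial-like endothelial cells 186 and 212, and lymphatic-like endothelial cells 35 and 117. At P60, 264 of the VSMC-like cells came from subclusters of which replicate 3 gave most cells, one of them led by Atf3 and Klf2, which are stress and early response genes. The other, of 65 cells, had a median of 26.4% mitochondrial UMIs.

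Vascular smooth muscle is the main source of arterial elastin in development. VSMC-like cells held 1397, 1326 and 1395 CPM of Eln at P1 and 171, 223 and 497 CPM at P60. The ages did not overlap, P60 replicate 3 was the highest of its age, and Eln fell by 1.96 ± 0.32 on the log2 scale (adjusted p = 4.3e-04, edgeR). Without that library the change was -2.68 (adjusted p = 9.6e-16). In the same cells Mfap2 fell from 281, 390 and 229 to 15.96, 5.07 and 2.86 CPM (-5.27 ± 0.40, adjusted p = 1.4e-06) and Mfap4 from 108, 58.0 and 63.1 to 13.7, 20.3 and 2.86 CPM (-2.79 ± 0.49, adjusted p = 8.2e-04). Fbn2 had 76 UMIs over the P1 libraries and 0 over the P60 libraries, at least 56.2-fold lower against a floor of 3 UMIs over the group. Fbn1 fell from 59.1, 77.3 and 36.5 to 22.8, 20.3 and 20.98 CPM (-1.24 ± 0.34, adjusted p = 0.013). Of the 6 genes that passed the count filter in VSMC-like cells, 5 were called lower and none higher (35.0% of 4544 tested genes were called, 16.9% lower and 18.2% higher). The same number, 5, did not overlap between the ages, against 47.1% of all tested genes. Mfap5 was called higher without P60 replicate 3 (1.37 ± 0.27, adjusted p = 1.9e-04, edgeR, against 0.91 ± 0.43 with it). The summed level of 6 fibroblast markers in these cells was 2053 to 3850 CPM at P1 and 741 to 800 CPM at P60, with all 6 above 0 in every library, and that of 8 Schwann cell markers was 367 to 1654 and 76.3 to 91.2 CPM. Their part in the falls was not tested.

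Eln moved the other way in pericyte-like cells, the mural cells of capillaries. It was 7.57, 37.6 and 55.5 CPM at P1 and 123, 169 and 168 CPM at P60 (2.14 ± 0.34, adjusted p = 1.1e-04, edgeR), with immune cells at 4.79 to 30.5 and 16.4 to 18.2 CPM. After leaving out cells with 10 or more Dcn UMIs (1 of 379 cells at P1 and 28 of 337 at P60) the change was 2.11 (adjusted p = 2.0e-04). RNA that marks other classes was not equal between the ages. The summed level of 6 fibroblast markers was 2228 to 2255 CPM in P1 and 3759 to 4150 CPM in P60 pericyte-like cells. All 6 were above 0 in each P60 library and at least 5 in each P1 library. That of 8 endothelial markers was 430 to 451 CPM at P1 and 632 to 870 CPM at P60. That of 8 Schwann cell markers went the other way, from 381 to 510 CPM down to 93.9 to 161 CPM. The part of such RNA in these changes was not tested. All 7 genes that passed the filter were called there (30.4% of 6493 tested genes), 5 higher at P60 (16.9%) and 2, Mfap2 and Fbn2, lower (13.5%), and all 7 were without overlap of the ages (42.7% of all tested genes). Mfap5 was also higher at P60 than at P1 in immune cells, and the part of free RNA in its rise here was not tested. The rises other than those of Eln and Mfap5 depended on the cells counted. With likely doublets left out 5 genes passed the filter and 2, Eln and Mfap5, were called higher, while Fbn1 was at -0.20. At a clustering resolution of 0.8, where a P60 subcluster of 25 cells with Cd34, Clec3b and Dcn was split off, again Eln (1.37) and Mfap5 (2.15) were called higher, Fbn1 was called lower (-0.80, adjusted p = 0.020, edgeR), Fbln2 was at 0.24 (adjusted p = 0.68) and Fbln5 was below the filter. Without P60 replicate 3 Fbln1 also passed the filter and was called higher (1.89 ± 0.35, adjusted p = 1.1e-04, edgeR).

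Arterial-like endothelial cells held 1125, 1791 and 2517 CPM of Eln at P1 and 386, 367 and 1446 CPM at P60. These overlap, and the change of -1.31 ± 0.41 passed the test (adjusted p = 0.025, edgeR) but not with DESeq2 (adjusted p = 0.22), nor without P60 replicate 1 (0.12) or P60 replicate 2 (0.077). A P1 arterial-like cell with any Eln UMI had 36.4 of them on average, against 5.53 at P60, while the share of cells with a UMI at 1500 UMIs per cell was 24.9% at P1 and 41.3% at P60, so no order of the ages is read from the share. Fbln5 was 555, 612 and 647 CPM at P1 and 243, 286 and 474 CPM at P60 (-0.86 ± 0.20, adjusted p = 0.0044, edgeR). Fbln2 was 539, 504 and 610 against 260, 213 and 349 CPM (-1.01 ± 0.17, adjusted p = 4.0e-04), and Mfap2 was 242, 311 and 273 against 7.43, 7.68 and 0 CPM (-5.52 ± 0.33, adjusted p = 1.5e-08). Of 6 genes that passed the filter 5 were called (30% of 6240 tested genes), Mfap5 higher (15.9%) and 4 lower (14.1%), and 4 had no overlap of the ages (44.0%). Without P60 replicate 3 Fbn1 was also called lower (-0.74 ± 0.26, adjusted p = 0.033, edgeR). Arterial-like Mfap5, at 101 to 145 CPM at P60, lay below the immune range. The summed level of the fibroblast markers was 523 to 779 CPM at P1 and 369 to 547 CPM at P60 in these cells, and its part in these changes was not tested.

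Lymphatic-like endothelial cells, too few at P1 for a test, held 3843, 2979 and 1400 CPM of Eln at P1 and 196, 129 and 153 CPM at P60, with Fbln2 at 1344, 1551 and 937 against 71.4, 78.8 and 53.9 CPM. The P1 values rest on 10, 12 and 13 cells and the P60 values on 29, 40 and 48. The summed fibroblast markers were 798 to 3830 CPM at P1 and 445 to 1214 CPM at P60 in these cells, and their part in the difference was not tested. The remaining endothelial cells had 225, 313 and 212 CPM of Eln at P1 and 222, 201 and 192 CPM at P60, so within the endothelium the high P1 levels lay in arterial-like and lymphatic-like cells. In the remaining cells the summed fibroblast markers were 2427 to 3470 CPM at P1 and 1539 to 1986 CPM at P60. The part of that RNA in their Eln level was not tested.

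**Figure D5:**
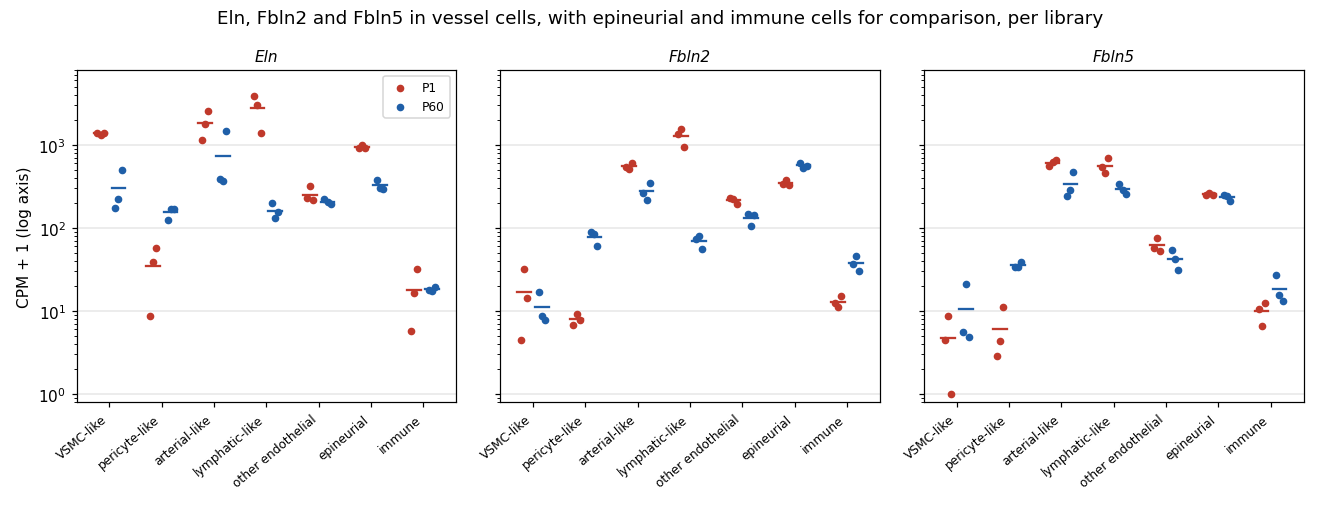
Level of Eln, Fbln2 and Fbln5 (CPM + 1, log axis) per library in 5 groups of vessel cells, with epineurial and immune cells beside them, P1 in red and P60 in blue and a line at each mean. VSMC-like, arterial-like and lymphatic-like cells have the highest Eln at P1, and pericyte-like cells are the vessel group with more Eln at P60 than at P1.

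The order of the classes by level shifted with age. For Eln at P1 it was epineurial, endothelial, mural, perineurial, endoneurial, Schwann and immune, where endoneurial and Schwann, and Schwann and immune, overlapped. At P60 epineurial, endothelial and mural cells came first but overlapped each other in turn. For Mfap2 at P1 the order was epineurial, endoneurial, perineurial, mural, endothelial, Schwann and immune with no overlap between neighbours. At P60 endoneurial and epineurial cells overlapped at the top and perineurial cells had dropped among the vessel classes. For Efemp1 the first place went from epineurial at P1 to endoneurial at P60, where endoneurial and epineurial cells overlapped. For Fbln2 the endothelial and epineurial classes overlapped at the top at P1 and epineurial cells were first at P60.

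Other genes of elastic fibre biology were taken from a list of 42, of which 30 to 34 passed the count filter in each class. In epineurial cells 9 of 33 rose and 10 fell (median change 0.13), beside 22.6% and 20.5% of all tested genes. In endoneurial cells 10 of 31 rose and 11 fell (median -0.04), beside 23.7% and 22.6%. In perineurial cells 7 of 34 rose and 20 fell (median -1.23), beside 27.7% and 26.3%. In mural cells 11 of 31 rose and 5 fell (median 0.32), beside 17.9% and 15.2%, and in endothelial cells 11 of 30 rose and 12 fell (median -0.23), beside 21.1% and 18.8%. The medians over all genes tested were 0.02 to 0.04.

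All 4 tested cross-linking enzymes fell in perineurial cells, where 26.3% of all tested genes were called lower, Lox by 2.98 ± 0.13 (215 to 26.9 CPM, adjusted p = 3.5e-09, edgeR), Loxl1 by 2.23 ± 0.22 (114 to 23.6 CPM, adjusted p = 3.3e-06), Loxl2 by 1.40 ± 0.15 and Loxl3 by 0.69 ± 0.18. These encode lysyl oxidases, which cross-link elastin and collagen. In epineurial cells Lox alone of 4 was called, with a fall of 0.62 ± 0.11 (214 to 144 CPM, adjusted p = 0.0011). In endoneurial cells Lox fell by 1.78 ± 0.27 and Loxl2 also fell.

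Among assembly and microfibril partners, Fbln7, a further fibulin, rose in epineurial cells by 4.91 ± 0.45 (3.28 to 101 CPM, adjusted p = 1.1e-05, edgeR). Ltbp4, whose product guides elastin onto microfibrils with fibulin-5, rose in epineurial (1.56 ± 0.12, 105 to 319 CPM, adjusted p = 3.6e-06) and endoneurial cells (2.04 ± 0.15, 30.8 to 120 CPM, adjusted p = 1.2e-07). Ltbp1, a latent TGF-beta binding protein held on microfibrils, rose in endoneurial cells (2.40 ± 0.16, 20.6 to 104 CPM). Thsd4, encoding ADAMTSL6, which binds fibrillin-1, fell in epineurial cells (-2.49 ± 0.34, 16.3 to 3.12 CPM) and rose in perineurial cells (3.14 ± 0.21, 7.62 to 66.2 CPM, adjusted p = 9.2e-08). Vcan, the proteoglycan versican, fell by 4.73 ± 0.18 in perineurial cells (126 to 4.5 CPM, adjusted p = 8.3e-10), and Emilin2, an elastin microfibril interface protein, fell there by 3.14 ± 0.21 (73.1 to 8.09 CPM).

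Of the proteases, Mmp2 rose in endoneurial (2.20 ± 0.16, adjusted p = 1.0e-07, edgeR) and fell in perineurial cells (-2.14 ± 0.20, 154 to 34.2 CPM, adjusted p = 1.7e-06). Timp3, a matrix-bound inhibitor of metalloproteinases, rose in all 5 classes, by 4.80 ± 0.16 in endoneurial cells (17.6 to 464 CPM, adjusted p = 8.3e-11) and by 1.75 to 2.34 in the others. Of the integrin subunits that bind elastic fibre proteins, Itgb5 rose and Itgb3 fell in perineurial cells (3.12 ± 0.20 and -3.06 ± 0.22).

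The genes whose pattern was most like that of each member were sought by Pearson's r of log2(CPM + 1) over 54 profiles, made of 9 classes in 6 libraries. The profiles share libraries and, through free RNA, molecules, so r is given as a description. Fbn2 was most like Dlk1 (0.931), Mdk (0.899) and Nrk (0.894), and Mfap2 most like Fkbp10 (0.900), H19 (0.893) and Adam12 (0.888). Mfap5 was most like Igfbp6 (0.943), Tnxb (0.933) and Clec3b (0.920), and Efemp1 most like Medag (0.933), Rbp4 (0.920) and Igfbp6 (0.898). Eln had its nearest gene in Tgfb2 (0.804), Fbn1 in Htra3 (0.859), Mfap4 in P4ha3 (0.813), Fbln1 in Ugdh (0.853), Fbln2 in Cd34 (0.909) and Fbln5 in Arhgef28 (0.835). Within the set the nearest pairs were Mfap5 with Efemp1 (0.899), Fbn2 with Mfap2 (0.831) and Fbln2 with Fbln5 (0.743), while the best match of Eln was Fbln2 at 0.358.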

How the data were processed

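Sciatic nerve cells of 3 P1 and 3 P60 libraries were analysed from the matrices of raw UMI counts per gene and barcode that the authors deposited, made, per the submitters' processing notes, with Cell Ranger 2.0.2 and GRCm38.p5, without normalization or pooling of replicates. The methods of the study name a human build, and the deposited gene identifiers are mouse. Cells with 500 to 5000 genes were kept. Clustering followed the study's Seurat workflow in Seurat 5.3.0 (R 4.3.3), within age, with the 10 genes removed from the variable genes and a normalisation total of 10000 per cell. The study states 100000 for its plate data and refers to the same workflow for droplet data, so that total was run as an alternative. A cluster was named from at least 3 markers, each 2-fold higher than in the cells compared, with a lead of 2 markers over the next name. VSMC-like and pericyte-like subclusters were named from markers above the mean of the mural subclusters, a rule set after seeing the data. UMI counts were summed per library and class and tested with edgeR 4.0.16 (filterByExpr, TMM, quasi-likelihood F test), with DESeq2 1.42.0 as an alternative. The difference between classes in the change with age was tested with library as a block. In simulated counts the age test recovered 96 to 100% of 3-unit and 40 to 69% of 1-unit log2 changes over the 8 classes tested. Free RNA was read from immune and Schwann cells because empty droplets were not used here. These backgrounds are not alike, since 6 fibroblast markers summed to 4665 to 8938 CPM in P60 Schwann and 1774 to 2123 CPM in P60 immune cells. P1 Schwann cells held far more Fbln5 than immune cells, so they give no background for that gene. Doublets were not removed in the main analysis. Thinning drew 1500 UMIs per cell. Members and lists were chosen with earlier results of these data known. Named genes were the 10 members, of the list of 42 up to 4 called genes with the largest change per role and class, and up to 3 most like genes. Alternatives were another normalization, no count filter, leaving out libraries, the replicate block, other clusterings, a mitochondrial limit of 10%, doublets out, 50 cells per library and cells with foreign RNA out.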

Additional observations from a re-analysis of the deposited data

Results flagged for a closer look

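The change with age differed between classes by the edgeR interaction term for 26 gene and class pairs. Relative to epineurial fibroblasts, the log2 change (P60 minus P1) in endoneurial fibroblasts differed by 6.91 for Efemp1, 3.09 for Mfap5, 2.27 for Fbn2, 1.51 for Eln, 0.97 for Fbn1, 0.80 for Mfap2, 0.80 for Fbln2, 0.43 for Fbln5, -1.16 for Mfap4 and -2.90 for Fbln1, all 10 at an adjusted p under 0.05 (31.2% of all genes tested). With DESeq2 Mfap4 and Fbln5 did not pass (adjusted p = 0.19 for each). Endoneurial Eln overlapped the Schwann range at P1 and lay below it at P60. The epineurial class was not the same mixture of clusters at P1 and P60, and epineurial Mfap4 fell further in Pi16-type cells alone. The part of this mixture in the differences from epineurial cells was not tested.

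In perineurial cells the difference from epineurial cells was 2.25 for Efemp1, 0.96 for Mfap5, 0.92 for Fbn2, 0.50 for Fbln5, -0.84 for Fbn1, -1.33 for Eln, -3.03 for Mfap4, -3.08 for Fbln1, -3.12 for Mfap2 and -4.06 for Fbln2 (37.7% of all genes tested were called). The newborn perineurial class had far less of its marker Slc2a1 than the adult one, and the part of this in these differences was not tested. In mural cells 6 were called, 2.36 for Efemp1, 2.28 for Mfap5, 1.52 for Fbln5, 0.78 for Mfap4, -0.92 for Mfap2 and -1.46 for Fbln1, where 19.6% of all genes were. Without P60 replicate 3, Mfap2 (-0.37, adjusted p = 0.14) and Mfap4 (0.84, adjusted p = 0.057) did not pass. At P60 the mural levels of Efemp1, Mfap5, Mfap4 and Fbln1 lay within or close to the range of immune cells.

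In the main analysis Eln and Fbn1 moved in opposite directions in the mural subclasses without overlap of the libraries. Eln changed by -1.96 in VSMC-like and by 2.14 in pericyte-like cells, and Fbn1 by -1.24 and 0.93. The difference between the subclasses was not tested, and the Fbn1 rise in pericyte-like cells was -0.11 once cells high in Dcn, the marker of fibroblast RNA, were taken away.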

How the results depend on the processing

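The number of genes called stayed within 1.5 times the main number under every alternative, leaving out libraries included, except in 4 cases. In mural cells it was 3 in place of 6 with 50 cells per library, in pericyte-like cells 4 in place of 7 with doublets left out, and in arterial-like cells 8 in place of 5 with no count filter. The cause was not tested. The mural against epineurial difference called 2 to 7 genes when single libraries were left out, with 2 without P1 replicate 2, in place of 6. No single gene called in the main analysis of epineurial, endoneurial or perineurial cells changed direction with age. The replicate numbers of the labels paired the libraries weakly at most. Over 5 classes, correlations of deviations were -0.03 to 0.08 for same-numbered libraries, most of them positive, and -0.07 to 0.05 for differently numbered ones. With the replicate block 7 genes were called in epineurial, 8 in endoneurial and 7 in pericyte-like cells, as without it. The block added Fbln5 in perineurial cells (10 called in place of 9), Eln and Fbln2 in mural cells (8 in place of 6), Mfap4 in endothelial cells (9 in place of 8), Mfap5 in VSMC-like cells and Fbn1 in arterial-like cells (6 in place of 5 in each).

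Signs turned as follows (log2 changes). With a normalisation total of 100000 in clustering, the value the study states, in place of 10000, Fbn1 was -0.091 and Mfap5 -0.12 in epineurial and Fbn1 0.56 in mural cells. Eln in endoneurial cells ranged from -0.30 to 0.23 when single libraries were left out, with 0.23 without P1 replicate 3, 0.06 without P60 replicate 2, 0.06 without P60 replicate 3 and 0.36 with doublets left out. With only Pi16-type cells Fbln5 was 0.033 in epineurial cells, and 0.22 with the non-proliferating P1 fibroblasts of no subtype added, both chosen after seeing the data. With 50 cells per library Fbln5 was -0.36 in endoneurial and Fbn1 0.44 in endothelial cells. In mural cells Fbn1 was 0.0059 without P60 replicate 1 (range -0.42 to 0.0059 over single libraries) and 0.18 with VSMC-like and pericyte-like cells alone, Fbln2 -0.92, Fbln5 -0.23 and Fbln1 -0.68 with the genes kept for clustering, and Fbln1 -0.06, -0.22 and -0.29 without P1 replicate 1, P60 replicate 1 and P60 replicate 2 (range -0.29 to 0.69), -0.86 without doublets and -0.91 without foreign RNA. Mfap4 in endothelial cells was 0.062 without doublets and 0.025 without foreign RNA. Fbn1 in pericyte-like cells was -0.80 at resolution 0.8, -0.20 without doublets and -0.11 without foreign RNA. The difference for Mfap4, endoneurial against epineurial, was 0.078 at resolution 0.8, and for Fbn2, mural against epineurial, 0.53 without P60 replicate 3 (range -3.72 to 0.53). Without thinning, the change in the share of cells with a UMI was -2.92 points for Fbln2 in epineurial, -15.5 for Fbn1 and -2.51 for Fbln2 in endoneurial and -1.69 for Mfap5 in perineurial cells, where P1 cells had more UMIs each.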

Other observations

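A P1 cluster of 701 cells that took no name, with a median of 2462 UMIs and 19.8% mitochondrial UMIs per cell, held the highest Fbn2 level of all P1 classes, at 1077, 1129 and 1103 CPM, with Fbn1 at 621, 568 and 532 CPM and Mfap2 at 726, 640 and 630 CPM. The non-proliferating P1 fibroblast cluster with no subtype name was close to the Pi16-type cells in Mfap2 (1572, 1622 and 1695 CPM) and Mfap4 (903, 920 and 971 CPM). It held 4.09, 7 and 6.24 CPM of Efemp1, where the Pi16-type cells held 153 to 162 CPM.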
